A study of Mus musculus with 63 samples.

Results

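The mouse genes Per1, Per2, Per3, Cry1, Cry2, Dbp, Tef, Hlf, Ciart and Bhlhe41 were followed across ovaries and pituitaries of stressed and control mice. They are the negative limb of the circadian clock together with its PAR bZIP output factors. Each was taken by its gene name from both expression tables, which gave 10 of 34745 genes. The 10 were chosen with earlier results of these data known. Their counts beside shares of all genes are therefore descriptions and no independent test. All 10 were present in both tables, and all 10 passed the filter on low counts in ovary and in pituitary. The mice were female C57BL/6, the common inbred laboratory strain. Stressed groups were kept under chronic unpredictable mild stress, abbreviated CUMS, in which mild stressors change from day to day, for 8 or 12 weeks. Control groups were not. Animals were of 2 months (2M) or 6 months (6M), the labels not saying whether this was the age when stress began, which with the 2 durations made 4 sets. They are 2M-8W and 2M-12W in the younger class and 6M-8W and 6M-12W in the older class, and values in set order follow that sequence. Each set had a stressed and a control arm per tissue. Every group had 4 libraries of bulk RNA except the 6M-12W control ovaries, which had 3, for 32 pituitary and 31 ovary libraries in all. The labels give no hour of collection, estrous stage, batch or animal identity. Phase and level therefore cannot be told apart for a rhythmic gene, and the p-values below measure only the spread between these libraries. In bulk tissue, fewer cells of a type and less RNA per cell cannot be told apart either.

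In the mammalian clock, BMAL1 (gene Arntl) pairs with CLOCK or NPAS2, binds E-boxes and turns on the Period and Cryptochrome genes, whose proteins return to the nucleus and repress that pair. The same E-box drive acts on Dbp, Tef and Hlf, the proline and acidic amino acid-rich basic leucine zipper (PAR bZIP) factors, which in turn activate D-box genes such as the Period genes. Ciart (CHRONO) and Bhlhe41 (DEC2) encode further repressors of E-box transcription. In mouse tissues sampled round the clock, Dbp and Ciart messages peak early in this sequence, Per2 later and Cry1 last, so the classes mark successive phases. Per1 can also be induced directly by glucocorticoids and cyclic AMP. Both the pituitary and the ovary hold such clocks.

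On the coordinates of the deposited tables Per1 lies at chr11:69095217-69109960 (plus strand), Per2 at chr1:91415982-91459324 (minus), Per3 at chr4:151003652-151044665 (minus), Cry1 at chr10:85131702-85185054 (minus) and Cry2 at chr2:92403646-92434043 (minus). Dbp lies at chr7:45705088-45710155 (plus), Tef at chr15:81802421-81826861 (plus), Hlf at chr11:90336536-90390895 (minus), Ciart at chr3:95878503-95882251 (minus) and Bhlhe41 at chr6:145858243-145865558 (minus). The build is not named in the sources used here, but 80.8% of the 34344 gene identifiers shared with GENCODE M21, an annotation of GRCm38, sit at the same position there. Promoter windows of 300 bases, 250 before and 50 after the annotated start, came from RefSeq on GRCm38.p6 for 9 of the 10 genes, as 11 windows because Per1 and Tef have 2 starts each. Per2 has no window in that table. The windows printed here run 5′ to 3′ on the gene's own strand. They were picked because Dbp and Ciart had the largest stress folds in the pituitary, Per3 carries paired D-boxes, and Cry1 and Cry2 had different folds. Capitals mark the E-box CACGTG, the E-prime box CACGTT, which reads AACGTG on the other strand, and the D-box TTATGTAA. A second D-box form, TTATGCAA, was also searched.
Dbp, chr7:45704997-45705296, plus strand: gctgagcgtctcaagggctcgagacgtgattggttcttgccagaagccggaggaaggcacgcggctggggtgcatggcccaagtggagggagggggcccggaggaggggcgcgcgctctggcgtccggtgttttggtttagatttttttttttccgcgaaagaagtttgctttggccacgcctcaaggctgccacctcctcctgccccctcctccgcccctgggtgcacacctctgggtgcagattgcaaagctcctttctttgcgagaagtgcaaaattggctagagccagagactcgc
Ciart, chr3:95882179-95882478, minus strand: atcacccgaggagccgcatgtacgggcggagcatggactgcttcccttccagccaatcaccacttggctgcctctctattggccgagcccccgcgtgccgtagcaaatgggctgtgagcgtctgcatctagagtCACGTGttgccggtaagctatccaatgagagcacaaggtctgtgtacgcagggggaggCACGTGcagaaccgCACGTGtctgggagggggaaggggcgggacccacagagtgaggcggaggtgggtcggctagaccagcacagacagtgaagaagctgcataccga
Per3, chr4:151044616-151044915, minus strand: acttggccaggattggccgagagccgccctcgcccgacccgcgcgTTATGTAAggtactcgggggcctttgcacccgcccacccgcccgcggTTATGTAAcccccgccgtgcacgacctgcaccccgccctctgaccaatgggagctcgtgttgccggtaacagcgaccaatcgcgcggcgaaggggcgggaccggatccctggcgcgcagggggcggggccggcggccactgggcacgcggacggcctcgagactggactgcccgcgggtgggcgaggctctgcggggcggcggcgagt
Cry1, chr10:85185005-85185304, minus strand: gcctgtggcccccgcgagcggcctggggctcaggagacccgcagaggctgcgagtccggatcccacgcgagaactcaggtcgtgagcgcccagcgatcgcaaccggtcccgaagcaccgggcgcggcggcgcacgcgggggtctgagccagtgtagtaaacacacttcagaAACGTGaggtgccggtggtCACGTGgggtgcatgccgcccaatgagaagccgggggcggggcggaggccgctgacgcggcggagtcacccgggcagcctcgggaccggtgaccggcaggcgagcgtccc
Cry2, chr2:92434020-92434319, minus strand: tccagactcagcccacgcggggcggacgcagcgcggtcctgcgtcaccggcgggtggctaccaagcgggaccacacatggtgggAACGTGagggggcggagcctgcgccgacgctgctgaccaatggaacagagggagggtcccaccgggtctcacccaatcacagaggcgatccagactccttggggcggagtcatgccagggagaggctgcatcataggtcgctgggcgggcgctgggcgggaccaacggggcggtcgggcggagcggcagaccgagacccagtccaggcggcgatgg

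Searched on both strands, the E-box CACGTG was present in 6 of the 11 windows, against 7.15% of the 32851 windows in the table. It occurred in Per1 (first start), Cry1, both Tef starts, Ciart and Bhlhe41. Ciart held 3 of them, beginning 116, 58 and 44 bases upstream of its start. The E-prime box CACGTT was in Cry1 and Cry2, against 4.68% of all windows. In Cry1 it began 79 bases upstream, close to the E-box that began 60 bases upstream. Per3 carried the D-box TTATGTAA at 205 and 158 bases upstream, a motif found in 0.938% of all windows. Per1 carried TTATGCAA 24 bases upstream of its first start, against 0.743% of all windows. Hlf held the cyclic AMP response element TGACGTCA 9 bases upstream, which occurs in 1.79% of windows. No window of these genes held the palindromic glucocorticoid response element, which occurs in 0.00913% of windows. The core letters AGGTCA of ROR elements, present in 16.3% of windows, was in the first Per1 window. Dbp and the second Per1 window held none of the motifs searched. These matches describe letters in short windows and not binding.

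**Figure D1:**
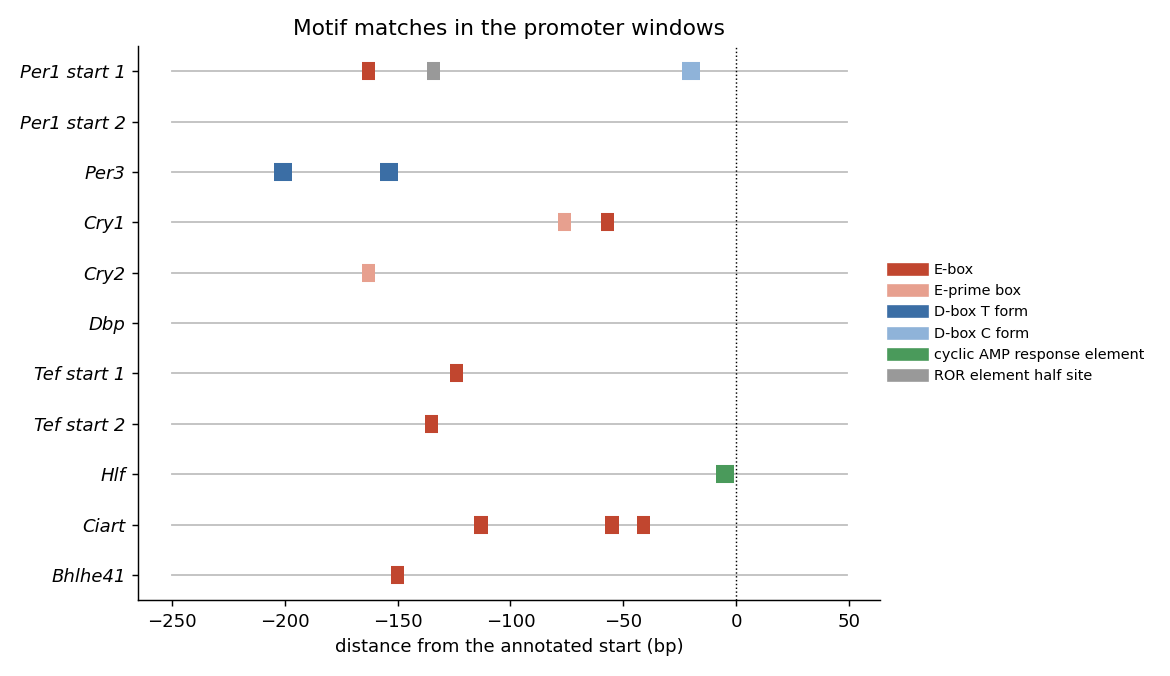
Motif matches in the RefSeq promoter windows of 9 genes; the x axis gives distance from the annotated start in base pairs and each box is one match. Ciart shows 3 E-boxes, Per3 shows 2 D-boxes and the Dbp line is empty.

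On the deposited FPKM scale, which divides by gene length and lets genes be compared, the order of the 10 genes differed between arms in the pituitary. In stressed pituitaries Dbp led with a median of 23.4 FPKM (lowest 13.9, highest 37.5, 16 libraries). In control pituitaries Dbp stood 6th with a median of 5.70 FPKM (lowest 3.20, highest 17.2). Per1 came 2nd among stressed pituitaries at a median of 15.4 FPKM and led among controls at 11.9 FPKM. Ciart was the lowest of the 10 in both arms, with medians of 1.67 FPKM in stressed and 0.393 FPKM in control pituitaries. Ranges of neighbours in this order overlapped except between Hlf and Ciart in stressed libraries and between Per2 and Ciart in control libraries.

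In the ovary Dbp led in both arms, with medians of 20.6 FPKM in stressed and 11.1 FPKM in control ovaries. Tef, Cry1 and Cry2 followed in stressed ovaries at 11.8, 11.0 and 9.73 FPKM. Hlf, at medians of 1.86 and 1.06 FPKM in stressed and control ovaries, stood 9th and 10th there. In pituitaries it had 6.22 and 4.91 FPKM in those arms, but the 2 tables were scaled separately. Only Per3 and Bhlhe41, in stressed ovaries, were neighbours without overlapping ranges. The smallest count behind any of these values was 11 reads, for Ciart in a control pituitary, and the next smallest gene minimum was 50 reads, for Ciart in the ovary.

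Library totals were 13514270 to 24924584 counts in pituitaries and 12536371 to 28777668 in ovaries. Tissue labels were checked against 8 markers of each tissue: the summed pituitary markers were 164320 to 237040 CPM (read counts scaled to library size) in pituitary libraries, and the summed ovary markers were 45.9 to 104 CPM there. In ovary libraries the ovary markers summed to 2639 to 6175 CPM and the pituitary markers to 2.20 to 1561 CPM, the highest in 2M-12W control ovary 1. Stressed ovary 1 of the 2M-8W set stood apart from its group, with a median rank correlation of 0.964 to the other 3 libraries and 2014 CPM of the 3 oviduct markers. Oviduct markers summed to 6.51 to 345 CPM in the other ovary libraries, stressed ovary 3 of that set having 183 CPM. Median rank correlation to its group was 0.972 in 2M-12W control ovary 3, against 0.979 to 0.984 in the other controls of that set. Its ovary markers summed to 6074 CPM, against 2752 to 3581 CPM in those controls. Control pituitary 3 of the 6M-12W set had a median rank correlation of 0.967 to its group, and mitochondrial genes took 4.34 to 6.44% of counts in stressed and 4.19 to 10.02% in control pituitaries of that set. They took 3.17 to 5.35% in stressed and 2.87 to 3.22% in control pituitaries at 2M-8W, and 2.74 to 3.59% in the 2M-12W and 6M-8W pituitaries of both arms. Their part in the folds was not tested.

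In all, 8 of the 10 genes rose in stressed pituitaries over the mean of the 4 sets and none fell, where 3.07% of the 17001 genes tested rose and 3.37% fell (edgeR quasi-likelihood test, Benjamini-Hochberg adjusted p under 0.05). The log2 folds of the 10 genes had a median of 0.88, against 0.00082 for all genes tested. All 3 PAR bZIP genes, Per2 and Per3, Cry2, Ciart and Bhlhe41 made up the 8. Per1 and Cry1 did not pass. At an unadjusted p under 0.05 only Cry1 was lower, and DESeq2 called none lower over the mean of the sets. Per set, 6 rose at 2M-8W, 6 at 2M-12W, 7 at 6M-8W and 6 at 6M-12W, against 0.241%, 0.388%, 2.30% and 0.100% of all genes. Dbp, Tef, Per2, Per3, Ciart and Bhlhe41 were the 6 that rose in every set, and Cry2 was the 7th at 6M-8W.

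Dbp encodes the PAR bZIP factor with the largest daily swing in many mouse tissues. It had 186, 143, 126 and 149 CPM in 2M-8W stressed pituitaries, against 21.6, 32.8, 25.1 and 39.0 CPM in controls. Stressed libraries of the 2M-12W set gave 101, 132, 134 and 111 CPM, against 26.8, 16.4, 19.7 and 16.5 CPM in controls. In both sets every stressed library lay far above every control. At 6M-8W it had 89.6, 82.0, 69.7 and 76.9 CPM in stressed pituitaries, against 33.6, 25.5, 18.3 and 30.7 CPM in controls. The 6M-12W libraries held 126, 115, 109 and 123 CPM when stressed, against 63.9, 83.9, 37.1 and 50.6 CPM as controls. The arms stayed apart here too, but the controls were the highest of the 4 control groups. Its log2 fold was 2.35 ± 0.21 (SE) at 2M-8W, 2.58 ± 0.21 at 2M-12W, 1.56 ± 0.21 at 6M-8W and 1.004 ± 0.20 at 6M-12W, with adjusted p of 4.22e-08, 4.27e-09, 1.96e-05 and 0.0161. Over the 4 sets it was 1.87 ± 0.10 (adjusted p = 1.52e-13).

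Tef, the thyrotroph embryonic factor first described in the rat pituitary, ranged from 134 to 227 CPM in the 16 stressed pituitaries and from 68.8 to 104 CPM in the 16 controls. No stressed library of any set overlapped a control of any set. Its log2 fold was the most even of the 10 genes across sets, 1.17 at 2M-8W, 1.07 at 2M-12W, 1.11 at 6M-8W and 1.14 at 6M-12W, each with an SE of 0.14, and 1.12 ± 0.07 over the sets (adjusted p = 9.4e-13). Hlf, the third PAR bZIP gene, passed only over the 4 sets together, at 0.38 ± 0.10 (adjusted p = 0.0149). Single-set folds were 0.30 to 0.55, with adjusted p of 0.378 to 0.671. Its 2M-8W arms alone did not overlap, with 65.2 to 84.5 CPM in stressed and 42.4 to 57.8 CPM in control pituitaries.

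Among the Period genes, which encode the inhibitory partners of the cryptochromes, Per2 had 57.3, 57.7, 54.3 and 55.7 CPM in 2M-8W stressed pituitaries, against 30.7, 18.4, 20.1 and 19.4 CPM in controls. It had 41.1, 34.0, 47.3 and 55.0 CPM in 2M-12W stressed pituitaries, against 36.3, 23.3, 22.0 and 26.2 CPM in controls. Stressed libraries lay above all controls in the first of these sets, while in the second the control pituitary 1, at 36.3 CPM, exceeded a stressed library. The 6M-8W values were 59.3, 51.2, 87.6 and 85.2 CPM under stress, against 22.1, 23.2, 20.8 and 19.8 CPM in controls. The 6M-12W values were 82.4, 87.5, 84.6 and 95.0 CPM under stress, against 31.0, 35.4, 39.7 and 35.5 CPM in controls. Arms were apart in both 6M sets. The Per2 log2 fold was 1.34 ± 0.17 at 2M-8W, 0.72 ± 0.17 at 2M-12W, 1.72 ± 0.17 at 6M-8W and 1.30 ± 0.17 at 6M-12W, with a mean of 1.27 ± 0.08 (adjusted p = 7.47e-12). The 2M-12W call (adjusted p = 0.0412) did not hold without 2M-12W control pituitary 2, 3 or 4 or 2M-12W stressed pituitary 1, 3 or 4 (adjusted p of 0.0601 to 0.163). Fitted on the 2M-12W groups alone, Per2 (adjusted p = 0.11), Per3 (0.0576) and Ciart (0.0576) did not pass in that set.

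Per3 spanned 149 to 238 CPM in stressed and 73.3 to 147 CPM in control pituitaries, again without overlap between any stressed and any control library. Control pituitary 1 of the 2M-12W set, at 141 CPM, was the highest of its group for this gene as for Per2. The log2 folds of Per3 were 1.02 ± 0.16, 0.88 ± 0.16, 0.76 ± 0.16 and 0.79 ± 0.16 in set order, and 0.86 ± 0.08 over the sets (adjusted p = 7.84e-09). Per1, the Period gene known for quick induction by acute signals, did not pass. It had 89.5 to 236 CPM in stressed and 71.9 to 216 CPM in control pituitaries, with single high controls of 179.5 CPM at 2M-8W, 216 CPM at 2M-12W and 189 CPM at 6M-12W. Its fold over the sets was 0.24 ± 0.14 (adjusted p = 0.37), and no set passed.

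Cry1, whose protein is a strong repressor of the pair BMAL1 and CLOCK, had values below controls at 2M and overlapping them at 6M, with no set past the threshold in the edgeR fit of all groups. Its 2M-8W stressed pituitaries had 20.7, 28.5, 24.4 and 24.2 CPM, against 58.5, 28.6, 29.9 and 29.2 CPM in controls. Its 2M-12W stressed pituitaries had 27.5, 19.8, 21.5 and 29.6 CPM, against 48.3, 36.3, 42.2 and 45.8 CPM in controls. In these 2M sets every stressed library lay below every control, narrowly so at 2M-8W. That held for 2.01% of all genes at 2M-8W and 4.11% at 2M-12W. The 6M-8W stressed pituitaries had 30.4, 33.1, 54.7 and 50.01 CPM, against 36.4, 34.2, 33.1 and 31.6 CPM in controls. The 6M-12W stressed pituitaries had 32.7, 33.9, 22.8 and 30.6 CPM, against 25.2, 29.2, 20.8 and 30.1 CPM in controls. Both 6M sets overlapped. The log2 folds were -0.58 ± 0.20 (adjusted p = 0.346) at 2M-8W, -0.81 ± 0.20 (0.0522) at 2M-12W, 0.32 ± 0.20 (0.435) at 6M-8W and 0.19 ± 0.20 (0.786) at 6M-12W. The 2M-12W fold passed as lower under 10 of 38 alternatives, among them DESeq2 (adjusted p = 0.00938), a fit of the set's own groups (0.0426), and fits without 6M-12W control pituitary 3 (0.0387), without 6M-12W control pituitaries 3 and 4 together (0.0421) or without 2M-8W control pituitary 1 (0.0124). The other 5 left out 6M-8W stressed pituitary 1 or 3, 2M-12W stressed pituitary 4, 2M-8W control pituitary 2 or 2M-8W stressed pituitary 1. Tested between ages, 6M minus 2M, the stress effect differed by 0.90 ± 0.28 at 8W and 1.002 ± 0.28 at 12W, with adjusted p of 0.224 and 0.393.

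Cry2, the second cryptochrome, had 80.5 to 100.2 CPM in stressed and 48.1 to 92.3 CPM in control pituitaries. It rose by 0.41 ± 0.07 over the sets (adjusted p = 0.000117), with single-set folds between 0.35 and 0.49. Of the single sets it passed at 6M-8W (adjusted p = 0.0243), and not without control pituitary 3 or 4 or stressed pituitary 3 or 4 of that set (adjusted p of 0.0699 to 0.0962). At 2M-12W the control pituitary 1, at 92.3 CPM, stood above the other controls at 60.4 to 64.0 CPM. Without it the 2M-12W fold was 0.60 ± 0.13 (adjusted p = 0.0152), against 0.43 ± 0.13 (0.143) with it.

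Ciart, whose product CHRONO represses the BMAL1 pair, had the largest mean fold. Its 2M-8W pituitaries held 9.98, 8.71, 8.16 and 8.10 CPM under stress, against 1.13, 1.81, 1.17 and 1.69 CPM in controls. At 2M-12W it had 3.86, 5.35, 6.99 and 5.80 CPM in stressed pituitaries, against 2.84, 0.70, 1.43 and 1.09 CPM in controls. In the 6M-8W arms it measured 5.38, 5.60, 7.21 and 6.11 CPM under stress, against 1.496, 1.62, 1.19 and 2.09 CPM in controls. No stressed library overlapped a control in these sets. At 6M-12W it had 6.52, 9.74, 7.04 and 8.32 CPM in stressed pituitaries, against 2.25, 3.21, 1.91 and 2.52 CPM in controls, again apart. The log2 folds were 2.59 ± 0.27, 1.79 ± 0.26, 1.93 ± 0.26 and 1.66 ± 0.26 in set order, and 1.99 ± 0.13 over the sets (adjusted p = 6.57e-12).

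Bhlhe41, the E-box repressor DEC2, had 58.2 to 104 CPM in stressed and 27.1 to 66.6 CPM in control pituitaries, and its arms were apart within each set. Its fold was 1.07 ± 0.12 at 2M-8W, 1.07 ± 0.12 at 2M-12W, 0.86 ± 0.12 at 6M-8W and 0.58 ± 0.12 at 6M-12W, and 0.90 ± 0.06 over the sets (adjusted p = 9.49e-12). At 6M-12W the calls of Bhlhe41, Per3 and Dbp were lost without control pituitary 3, control pituitary 4, stressed pituitary 1 or stressed pituitary 4 of that set, which left 3 called members each time, and also without controls 3 and 4 together.

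Of the 8 pituitary markers 2 rose in stressed pituitaries over the mean of the sets, with a median fold of -0.07 over the list and sums of 164320 to 223700 CPM in stressed and 165910 to 237040 CPM in control pituitaries. Folds on that list ran from -0.16 to 0.97 over the mean. The highest was 1.08, 0.92, 0.93 and 0.95 in set order. Of the 8 ovary markers, 5 of which were tested there, 1 rose, with sums of 56.3 to 104 CPM in stressed and 45.9 to 86.0 CPM in control pituitaries. Their part in the members' folds was not tested. Across the 4 sets the stressed pituitaries lay wholly above controls for 7, 5, 7 and 7 of the 10 genes in set order, where 1.97%, 4.66%, 7.44% and 2.41% of all genes did. Exons of Dbp overlap those of Sphk2 on the other strand over 539 bases, and the counting's use of strand is not given in the sources used here, so reads of the 2 genes may be mixed. Sphk2 fell by 0.17 in the pituitary (adjusted p = 0.0362), while Dbp rose. Bhlhe41, Cry2 and Tef share 1280, 295 and 193 exonic bases with Gm43909, D930015M05Rik and Gm17597. In the pituitary these partners averaged 0.82, 0.90 and -0.43 log2 CPM. Gm17597 rose with Tef, by 0.91 ± 0.20 over the sets (adjusted p = 0.00498). D930015M05Rik fell by 0.93 at 6M-8W (adjusted p = 0.0344), the set in which Cry2 passed, and did not pass over the mean (-0.29 ± 0.13, 0.206). Gm43909 did not pass (-0.22 ± 0.13, 0.375).

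**Figure D2:**
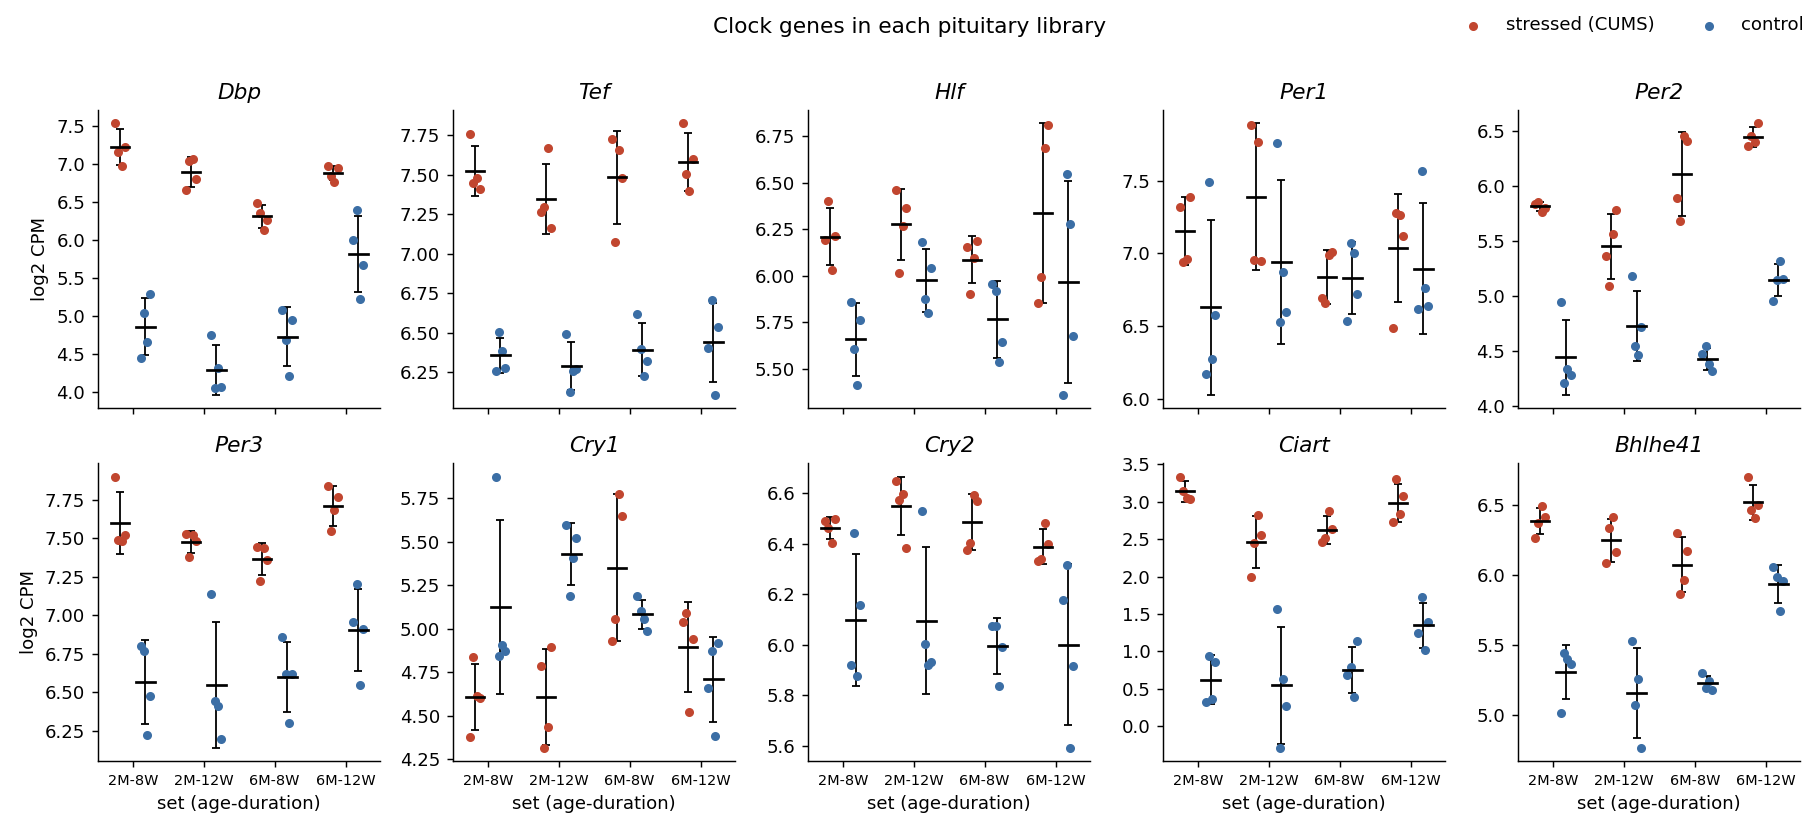
Normalised log2 CPM of the 10 genes in each pituitary library, one panel per gene, with stressed libraries left of controls in each set; bars give the mean and SD. Stressed libraries sit above every control in each set for Dbp, Tef, Per3, Ciart and Bhlhe41, and Cry1 lies below its controls in both 2M sets.

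In the ovary 6 of the 10 genes rose over the mean of the 4 sets and none fell, where 8.86% of the 17766 genes tested rose and 11.5% fell. They were Dbp, Tef, Hlf, Per2, Per3 and Cry1. The median log2 fold of the 10 genes was 0.40, against 0.0075 for all genes tested. Ciart, Bhlhe41, Per1 and Cry2 did not pass. None was lower at an unadjusted p under 0.05 or by DESeq2. Single sets gave fewer calls, 3 at 2M-8W, 3 at 2M-12W, 4 at 6M-8W and 2 at 6M-12W, against 3.96%, 2.58%, 0.557% and 5.18% of all genes.

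Hlf had the largest ovarian fold of the PAR bZIP genes. The 2M-8W stressed ovaries had 18.7, 22.4, 26.8 and 16.8 CPM, against 10.02, 10.1, 10.2 and 14.3 CPM in controls. The 2M-12W stressed ovaries had 18.3, 28.3, 26.2 and 18.7 CPM, against 15.6, 11.1, 15.8 and 12.2 CPM in controls. All stressed ovaries of these 2M sets exceeded all controls. The 6M-8W stressed ovaries had 20.9, 16.5, 12.1 and 20.5 CPM, against 6.58, 9.97, 12.5 and 9.63 CPM in controls. The 6M-12W stressed ovaries had 24.4, 25.5, 28.2 and 30.3 CPM, against 21.6, 15.1 and 23.5 CPM in the 3 controls. Arms overlapped at 6M-8W through stressed ovary 3 and were apart at 6M-12W. The log2 folds were 0.92 ± 0.20, 0.75 ± 0.20, 0.85 ± 0.21 and 0.43 ± 0.22 in set order, with adjusted p of 0.0175, 0.0254, 0.0455 and 0.195. Over the sets Hlf rose by 0.74 ± 0.10 (adjusted p = 2.47e-05). For Hlf 16 of 16 stressed ovaries exceeded their control mean, as was also so for Tef, Per2 and Per3.

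Tef rose by 0.47 ± 0.07 over the sets (adjusted p = 2.39e-05), with 121 to 207 CPM in stressed and 86.4 to 187 CPM in control ovaries. It passed at 2M-8W (0.45 ± 0.13, adjusted p = 0.0391), 2M-12W (0.54 ± 0.13, 0.013) and 6M-8W (0.60 ± 0.13, 0.035). Dbp had 108, 88.4, 80.4 and 69.4 CPM in 2M-8W stressed ovaries, against 57.2, 71.7, 62.1 and 114 CPM in controls. It had 99.6, 102, 108 and 56.5 CPM in 2M-12W stressed ovaries, against 33.1, 31.5, 103 and 34.5 CPM in controls. At 2M-8W control ovary 2 lay among the stressed values and control ovary 4 above them all, and at 2M-12W control ovary 3 lay among them. At 6M-8W it had 91.5, 107, 79.3 and 71.3 CPM in stressed ovaries, against 53.4, 44.2, 52.2 and 56.9 CPM in controls. The 6M-12W ovaries had 129, 132, 108 and 122 CPM under stress, against 126, 144 and 104 CPM in controls. Arms were apart at 6M-8W, the only such ovarian set for Dbp, and overlapped at 6M-12W. No single set passed for Dbp, with folds of 0.18, 0.86, 0.76 and -0.02 in set order. Without control ovary 3 the 2M-12W fold was 1.48 ± 0.21 (adjusted p = 0.000207). That set also passed without its stressed ovary 4 (1.05 ± 0.29, 0.0344), without 2M-8W control ovary 4 (0.87 ± 0.27, 0.0495) and by DESeq2 (0.0279). Its mean fold was 0.44 ± 0.14 (adjusted p = 0.0289), and it did not pass without 2M-12W control ovary 4 (adjusted p = 0.0514), without 2M-12W stressed ovary 3 (0.0508) or without 2M-8W stressed ovaries 1 and 3 together (0.066).

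Per2 had the largest mean fold of the 10 in the ovary. Its 2M-8W stressed ovaries had 53.9, 33.0, 40.4 and 34.7 CPM, against 31.6, 14.6, 35.9 and 18.7 CPM in controls. The values at 2M-12W were 21.3, 32.3, 31.2 and 41.6 CPM under stress, against 24.6, 15.9, 24.6 and 19.5 CPM in controls. Arms overlapped in both 2M sets. The values at 6M-8W were 29.9, 38.4, 46.6 and 44.8 CPM under stress, against 13.9, 17.3, 22.8 and 13.3 CPM in controls. The values at 6M-12W were 57.2, 54.6, 56.0 and 64.1 CPM under stress, against 31.2, 27.0 and 36.6 CPM in controls. Stressed ovaries exceeded all controls in both 6M sets. The log2 folds were 0.69 ± 0.24 (adjusted p = 0.0773), 0.58 ± 0.24 (0.138), 1.24 ± 0.24 (0.0209) and 0.88 ± 0.26 (0.0273) in set order, and 0.85 ± 0.12 over the sets (3.08e-05).

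Per3 rose by 0.60 ± 0.08 over the sets (adjusted p = 1.36e-05), with 47.8 to 90.6 CPM in stressed and 26.9 to 74.2 CPM in control ovaries. Of the sets, 2M-12W (0.70 ± 0.16, adjusted p = 0.00777) and 6M-8W (1.02 ± 0.16, 0.00359) passed. Per1 had 48.0 to 76.9 CPM in stressed and 40.6 to 71.4 CPM in control ovaries, and a mean fold of 0.12 ± 0.07 (adjusted p = 0.279). Its arms overlapped in each set except 6M-8W, where 58.7 to 71.9 CPM in stressed ovaries stood above 40.6 to 54.7 CPM in controls (fold 0.37 ± 0.15, adjusted p = 0.21).

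Cry1 rose by 0.24 ± 0.06 over the ovarian sets (adjusted p = 0.00578). At 2M-8W it had 26.6, 33.6, 36.3 and 29.9 CPM in stressed ovaries, against 27.2, 20.7, 27.7 and 20.8 CPM in controls. At 6M-12W it had 37.2, 35.3, 38.4 and 32.9 CPM in stressed ovaries, against 26.0, 24.8 and 29.4 CPM in controls, without overlap. The first of these sets overlapped. They are the 2 sets that passed, with folds of 0.39 ± 0.12 (adjusted p = 0.0469) and 0.43 ± 0.13 (0.0291). Cry1 did not pass at 2M-12W (-0.08 ± 0.12, adjusted p = 0.72), where 1 of 4 stressed ovaries exceeded the control mean. Nor did it pass at 6M-8W (0.22 ± 0.12, adjusted p = 0.375). Arms overlapped at 2M-12W and at 6M-8W. Cry2 gave 52.4 to 77.3 CPM in stressed and 55.5 to 83.1 CPM in control ovaries, with a mean fold of -0.06 ± 0.05 (adjusted p = 0.442). Its folds were -0.22, -0.16, 0.18 and -0.03 in set order.

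Ciart had 2.98 to 9.85 CPM in stressed and 2.41 to 8.51 CPM in control ovaries and a mean fold of 0.36 ± 0.16 (adjusted p = 0.102). It passed without 2M-8W control ovary 3 (0.45 ± 0.15, adjusted p = 0.0306) and without 6M-12W control ovary 1 (0.46 ± 0.16, 0.0442). Bhlhe41 had 9.49 to 20.6 CPM in stressed and 5.83 to 26.5 CPM in control ovaries and a mean fold of 0.15 ± 0.14 (adjusted p = 0.482). Its highest value belonged to 2M-12W control ovary 3, the library that also held the high control value of Dbp. Without that ovary the mean fold was 0.31 ± 0.10 (adjusted p = 0.0271).

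Stressed ovaries lay wholly above controls for 2, 2, 6 and 4 of the 10 genes in set order, where 4.01%, 5.32%, 4.47% and 15.0% of all genes did. They lay wholly below for none of the 10, and the share of all genes wholly below is not given beside this. Single-set counts in the ovary rested on few libraries. At 2M-8W the count was 0 without control ovary 2, and 0 without stressed ovaries 1 and 3 together. It was 1 without control ovary 4 or any of the 4 stressed ovaries of that set, and 1 without 6M-8W control ovaries 1 or 4 or 6M-12W stressed ovaries 1, 3 or 4. At 2M-12W it was 0 without stressed ovary 3 and 1 without stressed ovary 2 or control ovaries 2 or 4. At 6M-8W it was 1 or 2 without control ovaries 1, 2 or 4 or stressed ovaries 3 or 4. At 6M-12W it was 0 without control ovaries 1 or 2 or stressed ovaries 1 or 3, and 1 without stressed ovary 4. Of the 5 macrophage markers 3 fell in stressed ovaries over the mean of the sets, with a median fold of -0.31. Their sum was 142 to 354 CPM in stressed and 204 to 455 CPM in control ovaries, and none was at 0 throughout a group. Of the 8 ovary markers 2 rose, with a median fold of 0.34 and sums of 2835 to 6175 CPM in stressed and 2639 to 6074 CPM in control ovaries. At 6M-12W 4 of these 8 rose, and the arms were apart, at 5177 to 6175 CPM in stressed and 3376 to 3804 CPM in control ovaries. Macrophage sums were apart there too, at 257 to 348 CPM in stressed and 373 to 455 CPM in control ovaries, though no single macrophage marker passed. The part of macrophage and ovarian cell content in the members' folds was not tested. At 2M-8W 2 of the 3 oviduct markers rose in stressed ovaries, with a median fold of 4.97 and sums of 8.81 to 2014 CPM in stressed and 8.41 to 31.9 CPM in control ovaries, and over the mean of the sets none passed. Of the 4 adipocyte markers 1 rose over the mean, with a median fold of 0.27. At 6M-12W 1 rose as well, with a median fold of -2.63 over the list. Sums there were 50.5 to 70.1 CPM in stressed and 27.2 to 28.7 CPM in control ovaries. At 2M-12W 4 of the 8 pituitary markers fell, with sums of 48.9 to 58.2 CPM in stressed and 63.1 to 1561 CPM in control ovaries. The part of these markers was not tested beyond leaving out single libraries.

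**Figure D3:**
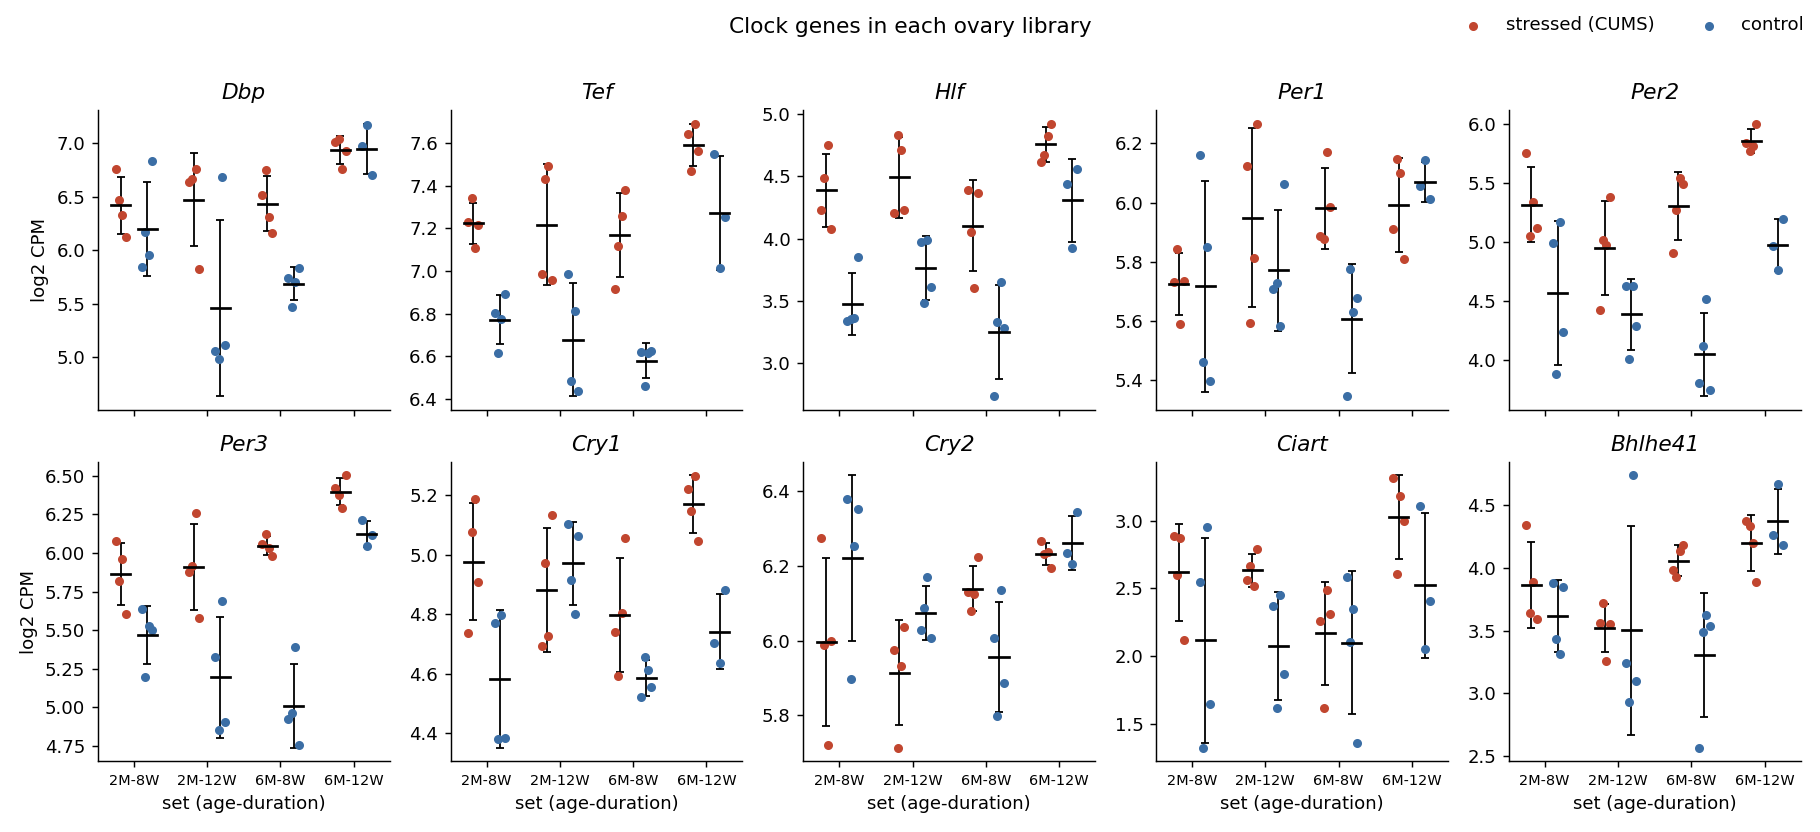
Normalised log2 CPM of the 10 genes in each ovary library, drawn as for the pituitary, with stressed libraries left of controls; bars give the mean and SD. Per2, Per3, Hlf and Tef are higher in most stressed ovaries, and Dbp and Bhlhe41 each show a high control at 2M-12W, 103 and 26.5 CPM.

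Averaged by class on the log2 CPM scale, the PAR bZIP genes showed stressed-minus-control differences of 1.36, 1.32, 0.999 and 0.86 in pituitaries, in set order. The Period genes differed by 0.98, 0.70, 0.82 and 0.75. Ciart and Bhlhe41 together differed by 1.80, 1.503, 1.36 and 1.11. The cryptochromes differed by -0.08, -0.18, 0.38 and 0.29, with SEs of 0.12, 0.12, 0.14 and 0.14. They were the one class with differences on both sides of 0. Within it Cry2 folds were above 0 in all 4 pituitary sets, at 0.35 to 0.49. Cry1 folds took both signs, from -0.81 to 0.32. In ovaries the PAR bZIP class differed by 0.53, 0.76, 0.73 and 0.25, the Period class by 0.39, 0.49, 0.89 and 0.36, and the cryptochromes by 0.08, -0.12, 0.20 and 0.20. Ciart and Bhlhe41 differed there by 0.37, 0.29, 0.41 and 0.16. The PAR bZIP difference was numerically above the Period difference in all 4 pituitary sets, and in the ovary at 2M-8W and 2M-12W. From the spread of libraries, SEs in set order were 0.10, 0.11, 0.14 and 0.17 (PAR bZIP) and 0.14, 0.24, 0.11 and 0.12 (Period) in pituitaries. In ovaries they were 0.14, 0.25, 0.09 and 0.08, and 0.20, 0.12, 0.13 and 0.04. The order of classes was not tested. Pituitary Per2 folds exceeded those of Dbp at 6M-8W (1.72 against 1.56) and 6M-12W (1.30 against 1.004). These class means are descriptions of 2 or 3 genes each.

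**Figure D4:**
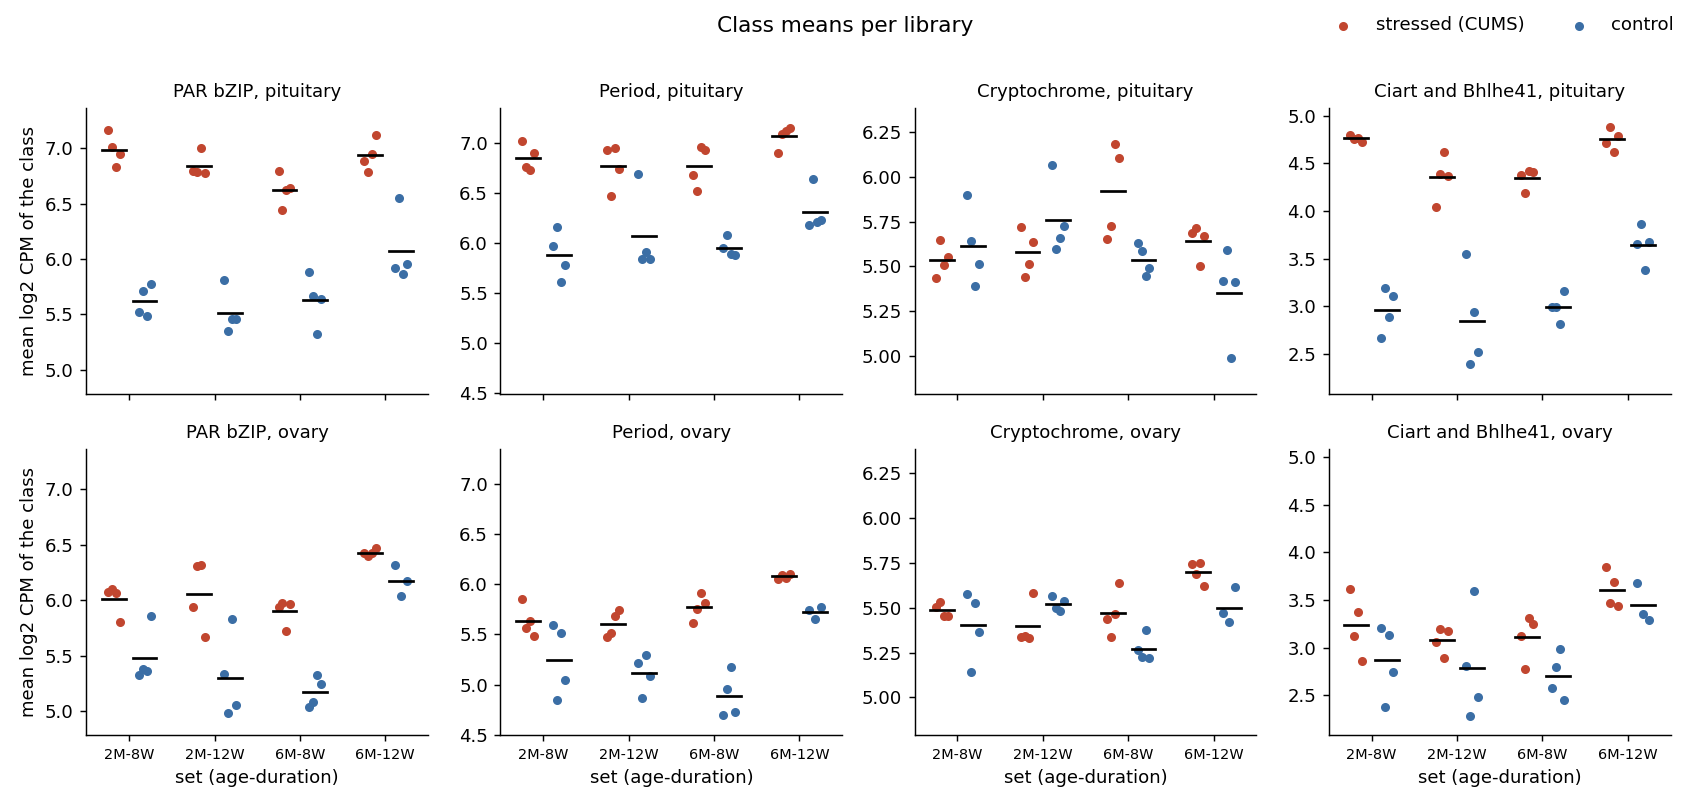
Mean log2 CPM over the genes of each class in every library, pituitary above and ovary below, with stressed libraries left of controls and a bar at each group mean. Mean levels of the PAR bZIP, Period and repressor classes are higher in stressed pituitaries of every set, while cryptochrome differences take both signs.

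Folds were then set side by side between the tissues, gene by gene. Over the 4 sets, 8 of the 10 genes had folds of the same sign in pituitary and ovary, and 5 of them (Dbp, Tef, Hlf, Per2 and Per3) rose in both. Across the 10 genes, which are not independent, Pearson's r between the mean folds was 0.32 and Spearman's rho was 0.33. In single sets r was 0.09, 0.54, 0.20 and 0.47 and the same sign was shared by 7, 8, 9 and 6 genes in set order. The shares of all genes with the same sign, or rising in both tissues, were not computed, so these counts have no background beside them. The median fold of the 10 genes was 1.05, 0.80, 0.81 and 0.69 in pituitaries and 0.40, 0.54, 0.65 and 0.29 in ovaries.

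The difference itself, pituitary minus ovary, was tested in a fit over all 63 libraries, which treats them as independent, although the labels do not say whether a pituitary and an ovary came from the same animal. After subtraction of group means, same-numbered ovaries and pituitaries correlated at -0.38 (Cry2) to 0.46 (Per2) for single members over 31 pairs. The fit takes no account of such pairs. In that fit 6 of the 10 genes passed over the mean of the sets, 5 toward a higher fold in the pituitary and 1 toward a lower one, where 10.2% of the 19047 genes tested differed. Ciart differed by 1.63 ± 0.21 (adjusted p = 2.06e-07) and Dbp by 1.42 ± 0.18 (1.41e-07). Bhlhe41 differed by 0.74 ± 0.15 (0.000618), Tef by 0.64 ± 0.10 (6.81e-06) and Cry2 by 0.46 ± 0.08 (0.000129). Cry1 differed the other way, by -0.47 ± 0.12 (0.00782), from folds of -0.22 in pituitaries and 0.24 in ovaries. For Per2 (0.42 ± 0.15, adjusted p = 0.0608), Per3 (0.26 ± 0.11, 0.153), Per1 (0.12 ± 0.17, 0.77) and Hlf (-0.36 ± 0.15, 0.11) no difference passed, which does not show that the tissues responded alike. Per3 passed without 2M-12W control pituitary 1 (0.31 ± 0.11, adjusted p = 0.0473). Per2 passed under 12 of its 70 alternatives, among them without the same library (0.46 ± 0.15, 0.0344) and without 2M-8W control ovary 2 (0.46 ± 0.14, 0.0254).

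Within the PAR bZIP class Dbp, Tef and Hlf had mean folds of 1.87, 1.12 and 0.38 in pituitaries and 0.44, 0.47 and 0.74 in ovaries. Single sets gave 4, 2, 1 and 1 differing genes in set order, against 2.18%, 1.86%, 1.03% and 2.39% of all genes. At 2M-8W they were Ciart (2.19 ± 0.42, adjusted p = 0.00283), Dbp (2.17 ± 0.35, 0.00063), Cry1 (-0.97 ± 0.24, 0.02) and Tef (0.72 ± 0.19, 0.0322). At 2M-12W they were Dbp (1.69 ± 0.36, 0.00505) and Bhlhe41 (1.20 ± 0.30, 0.0244). At 6M-8W it was Ciart (1.89 ± 0.42, 0.0104) and at 6M-12W it was Tef (0.82 ± 0.20, 0.0165). The 2M-8W count was 2 without control ovary 4 or control pituitary 1 of that set. The 2M-12W count was 4 without control pituitary 1, and 1 without control ovary 3, stressed ovary 3, control pituitaries 2 or 4 or stressed pituitary 3. The 6M-12W count was 0 without control ovary 1 of that set and 2 without 2M-12W control ovary 3.

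**Figure D5:**
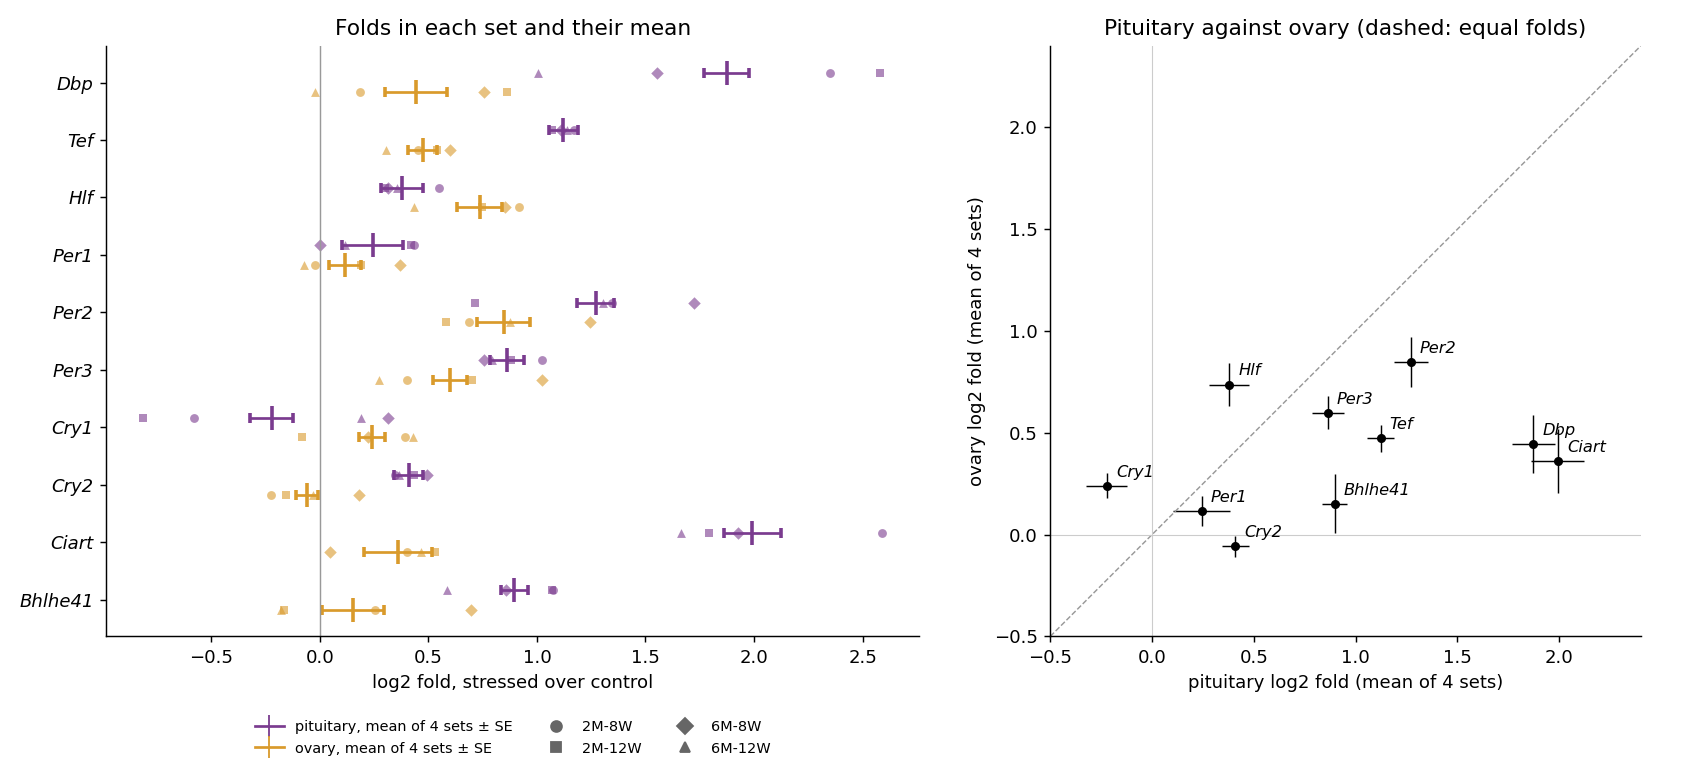
Log2 folds of stressed over control libraries, in each set and as the mean of the 4 sets with its SE (left), and the mean pituitary fold against the mean ovary fold (right, dashed line for equal folds). Dbp and Ciart lie farthest toward the pituitary, at 1.87 and 1.99 against 0.44 and 0.36 in the ovary, while Hlf and Cry1 lie on the ovary's side of the line.

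In each tissue 1 member differed in its stress effect between ages or durations. In the pituitary the Dbp stress effect at 12W differed between ages, 6M minus 2M, by -1.58 ± 0.29 (adjusted p = 0.0356), one of 4 genes, or 0.0235% of those tested. Its stressed levels were 109 to 126 CPM at 6M and 101 to 134 CPM at 2M, and its control levels were 37.1 to 83.9 CPM at 6M and 16.4 to 26.8 CPM at 2M. Leaving out any of 15 single libraries raised that adjusted p to between 0.0536 and 0.131. These were 2M-12W controls 2, 3 and 4, 2M-12W stressed 2, 3 and 4, 6M-12W controls 1 and 2, all 4 of the 6M-12W stressed, 6M-8W control 2, 6M-8W stressed 4 and 2M-8W stressed 4, with folds of -1.36 to -1.61. In the ovary the Per3 stress effect at 6M differed between durations, 12W minus 8W, by -0.75 ± 0.23 (adjusted p = 0.0392, with 8.74% of genes tested passing in either direction). That call did not pass (adjusted p of 0.0535 to 0.0995) without 6M-8W controls 1, 2 or 4, 6M-8W stressed 1 or 3, any 6M-12W control, or 6M-12W stressed 1, 2 or 3. Without 2M-12W control ovary 3 a second member passed. In the other comparisons of this kind no member passed, where in the pituitary 0.182% of genes passed by age at 8W, 0.00% by duration at 2M and 0.359% by duration at 6M, and in the ovary 0.00% passed by age at 8W or at 12W and 0.501% by duration at 2M. At an unadjusted p under 0.05 the edgeR test had 2, 2 and 0 members in those pituitary comparisons and 2, 2 and 1 in those ovarian ones, and DESeq2 called none.

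Control groups differed among themselves in several of these genes. The 6M-12W control ovaries were higher than 6M-8W control ovaries in Per3 (1.10 ± 0.17), Dbp (1.27 ± 0.30), Hlf (1.05 ± 0.22), Bhlhe41 (1.02 ± 0.30), Per2 (0.91 ± 0.26) and Tef (0.71 ± 0.14), with adjusted p of 0.000142 to 0.0477, where 4.77% of genes differed. They were higher than 2M-12W control ovaries in Dbp (1.31 ± 0.30), Per3 (0.90 ± 0.17) and Tef (0.59 ± 0.14), where 5.79% of genes differed. Cry1 was higher in 2M-12W than in 2M-8W control ovaries (0.38 ± 0.12, adjusted p = 0.0486, 6.76% of genes), and no member differed between the 8W controls (2.68%). In the pituitary, 6M-12W controls were higher than 6M-8W controls in Dbp (1.12 ± 0.21), Per2 (0.72 ± 0.17) and Bhlhe41 (0.71 ± 0.12), in a comparison where 32.0% of all genes differed. They were higher than 2M-12W controls in Dbp (1.56 ± 0.21) and Bhlhe41 (0.75 ± 0.12) and lower in Cry1 (-0.71 ± 0.20), where 32.5% of all genes differed. No member differed between the 8W controls or between the 2M controls, where 0.682% and 1.04% of genes did. At an unadjusted p under 0.05 the edgeR test had 0 members between the 8W and 1 between the 2M control pituitaries and 3 between the 8W control ovaries, and DESeq2 called none of these. The ovarian count over these comparisons was 4 in place of 10 without 6M-12W control ovary 1, and the pituitary count was 10 in place of 6 without 2M-12W control pituitary 1.

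Other genes of the pathway were counted on lists drawn up with earlier results of these data known. Beside these counts, 3.07% of all genes rose and 3.37% fell in pituitaries, and 8.86% rose and 11.5% fell in ovaries, so that counts of 1 or 2 on an ovarian list lie near the background. Of 11 genes of the activating limb and the REV-ERB and ROR branch, 3 rose and 3 fell in stressed pituitaries, and 2 rose and 5 fell in stressed ovaries. Arntl, which encodes BMAL1, fell by 1.17 ± 0.06 in pituitaries (adjusted p = 3.32e-14) and by 0.63 ± 0.08 in ovaries (5.48e-06). Nr1d2, a REV-ERB repressor, rose by 0.96 ± 0.05 in pituitaries (7.54e-14), while in ovaries Nfil3, the D-box repressor that opposes the PAR bZIP factors, fell by 0.75 ± 0.11 (5.54e-05). Of 9 genes that act on PER and CRY proteins, Usp2, a deubiquitinase, rose by 0.62 ± 0.07 in pituitaries (1.09e-06) and was the one to pass there. In ovaries 2 rose and 1 fell. Timeless was among those that rose (0.18 ± 0.06, adjusted p = 0.0339), and Csnk1e, a casein kinase that phosphorylates PER proteins, fell by 0.21 ± 0.05 (0.00368).

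Among 11 further genes known for daily rhythms in mouse tissues, 8 rose and 1 fell in stressed pituitaries, and 1 rose and 1 fell in ovaries. Tspan4, a tetraspanin, rose by 0.98 ± 0.07 in pituitaries (1.06e-10) and fell by 0.36 ± 0.10 in ovaries (0.0133). Of 10 genes responsive to glucocorticoids, 6 rose and none fell in stressed pituitaries, and none rose and 4 fell in ovaries (edgeR; at an unadjusted p under 0.05, 1 was lower in pituitaries and 1 higher in ovaries). In single pituitary sets 0, 1, 6 and 0 of these 10 rose in set order, against 0.241%, 0.388%, 2.30% and 0.100% of all genes. Fkbp5, a cochaperone of the glucocorticoid receptor, rose by 0.61 ± 0.07 in pituitaries (4.58e-07) and fell by 0.87 ± 0.15 in ovaries (0.000175). Of 10 immediate early genes none passed in pituitaries by edgeR, nor at an unadjusted p under 0.05, and 9 fell in ovaries, with Fosb lowest at -2.26 ± 0.40 (0.000281). Usp2 and Tsc22d3 each stand on 2 of these lists.

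Within sets, after subtraction of each set's mean, the levels of several members ran together across the 32 pituitary libraries. These correlations describe libraries that share the 2 arms and carry the stress difference itself. With Dbp, Pearson's r was 0.96 for Bhlhe41, 0.95 for Ciart, 0.92 for Per3, 0.92 for Tef, 0.83 for Cry2 and 0.79 for Per2. It was 0.57 for Hlf, 0.46 for Per1 and -0.49 for Cry1. Per2 ran closest to Tef, at 0.90. Outside the 10 genes, those most like Dbp were Tspan4 (0.94), Nr1d2 (0.93), Rasd2 (0.90), Cplx3 (0.89) and Nr1d1 (0.89), and those most like Per2 were Mettl7a1 (0.91), Fam126a (0.90), Nr1d2 (0.89), Fibin (0.88) and Glul (0.87). Among the genes most like Cry1 were Hexim1 (0.75), Kctd4 (0.75), Hsph1 (0.74) and Gprasp1 (0.73).

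Across the 31 ovary libraries the pattern was looser. With Dbp, r was 0.76 for Per3, 0.60 for Bhlhe41, 0.59 for Tef and 0.57 for Hlf, and 0.35 for Per2. Per2 ran closest to Per3 (0.80) and Tef (0.75), and with Cry1 at 0.66, where in the pituitary Per2 and Cry1 were at 0.0035. Genes outside the 10 that were most like Dbp were Nceh1 (0.82), Nr1d2 (0.82), Eef2k (0.79), Vnn1 (0.79) and Ppt1 (0.79). Those most like Per2 were Cds1 (0.87), Gclc (0.86), Tecpr2 (0.86), Ntrk3 (0.85) and Dock8 (0.85), and those most like Cry1 were Slc5a3 (0.82), Slc38a5 (0.81), Dhx29 (0.80), Fetub (0.80) and Fam98a (0.79). Nr1d2 was on the Dbp list of both tissues.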

How the data were processed

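Total RNA was extracted by a chloroform method and made into libraries with the NEBNext Ultra II RNA kit, per the labels' protocols. The authors deposited 1 table per tissue with raw read counts and FPKM for 34745 genes. Aligner, counter, annotation and strand use: not given in the sources used here. Counts, library totals and deposited FPKM together imply a length for each gene in each library. That length fell within 1% of the gene's median over libraries in 100.0% of 479516 pituitary and 469293 ovary values of at least 20 counts. No 2 libraries of a group were identical: over 93 pairs the lowest chi-square per degree of freedom was 8.88.

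The 10 members and the other gene lists were chosen with earlier results of these data known. Deposited counts were tested with edgeR 4.0.16 (R 4.3.3): filterByExpr, TMM scaling, and the quasi-likelihood F test in one fit of the 8 groups per tissue (17001 pituitary and 17766 ovary genes), with contrasts for each set, their mean, stress by age or duration, and controls. Differences between tissues came from a fit of 16 groups over 63 libraries (19047 genes). P-values were Benjamini-Hochberg adjusted over all genes tested, with a threshold of 0.05, and SE is the fold divided by the root of F. CPM uses TMM-scaled library sizes, and log2 CPM adds a prior count of 2. All 10 members are described in every comparison. Of each further list up to 4 genes past the threshold, by smallest p, could be named. Likeness is Pearson's r after subtracting set means. Some genes that these rules would name are not reported here. Alternatives were DESeq2 1.42.0, RLE scaling, no filter, a replicate block, own groups only, tissues fitted apart, and leaving out single or suspect libraries.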

Additional observations from a re-analysis of the deposited data

Results flagged for a closer look

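Of 150 groups of 4 libraries examined for a single value far from the other 3, 11 had one, and chance gives about 5%. In 2M-12W ovaries, Dbp was 102.9 CPM in control 3 against 31.5 to 34.5 CPM in the other controls, and 56.5 CPM in stressed ovary 4 against 99.6 to 108 CPM in the other stressed ovaries. Bhlhe41 was 26.5 CPM in the same control ovary 3, against 7.55 to 9.36 CPM in its other controls. Tef was 87.8 CPM in 6M-8W control ovary 2 (others 97.8 to 98.6 CPM), Hlf 14.3 CPM in 2M-8W control ovary 4 (others 10.02 to 10.2 CPM) and Bhlhe41 5.83 CPM in 6M-8W control ovary 1 (others 11.2 to 12.2 CPM).

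In the pituitary, 2M-8W control 1 was apart for Cry1, at 58.5 CPM against 28.6 to 29.9 CPM, and for Per2, at 30.7 CPM against 18.4 to 20.1 CPM. Per1 was 189.4 CPM in 6M-12W control 2 (others 98.0 to 108 CPM), Cry2 92.3 CPM in 2M-12W control 1 (others 60.4 to 64.0 CPM) and Per3 238.4 CPM in 2M-8W stressed pituitary 1 (others 178 to 183 CPM).

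Stress effects that differed by a test of the difference were those between ages for pituitary Dbp at 12W (-1.58 log2) and between durations for ovarian Per3 at 6M (-0.75 log2). Between tissues, pituitary minus ovary, the log2 differences over the 4 sets were 1.63 for Ciart, 1.42 for Dbp, 0.74 for Bhlhe41, 0.64 for Tef, 0.46 for Cry2 and -0.47 for Cry1. In single sets they were 2.19 for Ciart, 2.17 for Dbp, 0.72 for Tef and -0.97 for Cry1 at 2M-8W, 1.69 for Dbp and 1.20 for Bhlhe41 at 2M-12W, 1.89 for Ciart at 6M-8W and 0.82 for Tef at 6M-12W.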

How the results depend on the processing

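No result changed direction and passed. Called members kept their call under every alternative in 26 of 33 pituitary and 6 of 18 ovarian stress results, in 10 of 14 tissue differences, in 5 of 16 control comparisons, and in 0 of 2 interactions. Replicate numbers were not taken to pair the samples, since the labels do not state that they mark animals or batches. Same-numbered libraries correlated at -0.069 to 0.267 over 16 pituitary pairs and at -0.241 to 0.201 over 15 ovary pairs. Of these, 5 pituitary and 3 ovary pairs lay above 0.1. Each stressed library was also set against every control of its set. The own number was highest for 9 of the 16 pituitary and 4 of the 15 ovary pairs. That is a hint of pairing from the data and not from the design, and these correlations cannot settle it. With a replicate block, the ovarian counts of called members were 0 at 2M-8W, 2 at 6M-8W and 0 at 6M-12W (3, 4 and 2 without it), the pituitary interactions 0 (1), and tissue differences 2 at 2M-8W and 1 at 2M-12W (4 and 2). Pituitary Per2 at 2M-12W did not pass with it (adjusted p = 0.0616), and ovarian Dbp at 2M-12W did (0.0449). Ovarian Ciart passed over the mean of the sets with the block (0.41, adjusted p = 0.048). Fits of own groups only gave 0 at ovary 2M-8W and 2M-12W, 3 ovarian interactions, 3 ovarian control calls, 4 at pituitary 2M-12W (3 higher and Cry1 lower, Per2, Per3 and Ciart being lost), 3 at pituitary 6M-12W and 0 pituitary interactions. With no filter on low counts, ovary 2M-8W gave 1 and ovarian interactions 0. Without 2M-8W stressed ovaries 1 and 3, ovary 2M-8W gave 0 and its tissue difference 2. Without 6M-12W control pituitaries 3 and 4, that set gave 3. Tissues fitted apart gave 5 at 2M-12W. The cause of these changes was not tested, beyond the fewer samples in some fits.

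Leaving out 1 library at a time gave pituitary counts of 6 to 6, 5 to 7, 6 to 7 and 3 to 6 in set order, 8 to 8 over the mean, 0 to 1 interactions and 6 to 10 control calls. Ovarian counts were 0 to 3, 0 to 4, 1 to 5 and 0 to 2, 5 to 7 over the mean, 0 to 2 interactions and 4 to 12 control calls. Tissue differences were 2 to 5, 1 to 4, 1 to 1 and 0 to 2, and 6 to 8 over the mean. DESeq2 called 8 members in the pituitary and 6 in the ovary over the mean of the sets. Counts were lowest for Ciart, with 11 to 154 per pituitary library.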
